A study of Mus musculus with 6 samples.

Results

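Voltage-gated potassium channel subunits were examined in the dentate granule cell layer after deletion of Bcl11b/Ctip2 was induced in adulthood. Members were all genes whose symbol in the platform annotation is Kcna, Kcnb, Kcnc, Kcnd, Kcnf, Kcng, Kcnh, Kcnq, Kcns or Kcnv followed by digits, together with the Kv beta genes Kcnab1, Kcnab2 and Kcnab3 and the KChIP genes Kcnip1, Kcnip2, Kcnip3 and Kcnip4. This gave 42 of the 19938 genes measured. Kcnh6 had no probe set paired with exactly 1 gene in the annotation used and was not analysed here.

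The granule cell layer of the dentate gyrus (DG) was cut out of cresyl violet-stained cryosections by laser capture microdissection, and RNA of 3 mutant and 3 control samples was hybridized to 1 Affymetrix whole-transcript array each. Mutants carried Bcl11b flox/flox alleles with tetO-Cre and CaMKIIα-tTA, a tet-off system in which the transactivator switches Cre on once doxycycline is withdrawn. For the control mice of this line no genotype was found in the sources. Both groups received doxycycline through embryogenesis and until 2 months of age and were killed 4 weeks after its removal. The CaMKIIα promoter is active in forebrain excitatory neurons in general, so Cre was not limited to granule cells. No source states that each array holds 1 animal, and the p-values therefore measure the spread between these 6 arrays. All levels are log2 expression values after RMA, which gives every array nearly the same distribution, so that only changes relative to other genes are seen.

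Voltage-gated potassium (Kv) channels open on depolarization and let potassium leave the cell, which ends the action potential, sets the firing threshold and limits transmitter release at the terminal. Each channel is assembled from pore-forming subunits of 1 family. Kv1 channels sit mainly on axons and terminals, Kv2 channels on the soma and proximal dendrite, Kv3 channels open only at strongly depolarized potentials and close fast, Kv4 channels carry the transient A-type current of dendrites, and Kv7 channels carry the slow M current. Silent modifier subunits form no channel on their own but join Kv2 subunits and change their gating. Kv beta proteins bind Kv1 channels, and KChIPs are calcium-binding proteins that attach to Kv4 channels. Granule cell axons, the mossy fibers, are known for presynaptic potassium channels that inactivate during repetitive firing and broaden the spike.

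The Bcl11b probe set (10402554) had log2 levels of 9.03, 8.68 and 8.82 in mutants, against 10.56, 10.40 and 10.30 in controls, a log2 change of -1.58 (standard error, SE, 0.099, limma adjusted p = 2.56e-05). Every mutant array lay below every control array. Whether the probe set covers the floxed exon was not determined. All 10 markers of mature granule cells were above the median level of all genes. Their mean log2 level was 10.16 to 10.29 in mutants and 10.85 to 10.92 in controls, with 6 of 10 lower and 1 higher. Within this list C1ql2 had the largest log2 change, -3.29, while Prox1 had -0.051 and did not pass. The paper describes C1ql2 and desmoplakin (Dsp, log2 change -0.81) as direct targets of Bcl11b/Ctip2, so the list includes proposed targets of the deleted gene. Markers of immature granule cells had a mean level of 8.85 to 9.03 in mutants and 8.42 to 8.68 in controls, with 3 of 5 higher. The mean level of 12 markers of GABAergic interneurons, which overlapped between groups, was 7.78 to 7.89 in mutants and 7.71 to 8.0 in controls, with 2 lower. For 10 pyramidal and mossy cell markers it was 6.95 to 7.04 in mutants and 6.98 to 7.18 in controls, with 2 higher and 2 lower. For 10 astrocyte markers it was 8.52 to 8.75 in mutants and 8.32 to 8.63 in controls, with 1 higher. For 9 oligodendrocyte markers it was 7.70 to 7.87 in mutants and 8.03 to 8.17 in controls, with 1 lower. That gene was Ermn, with a log2 change of -1.71, where the median over the 9 was -0.13. The mean level of 9 microglia markers was 6.89 to 7.04 in mutants and 6.94 to 7.34 in controls, with 1 lower. For 7 endothelial markers it was 6.37 to 6.64 in mutants and 6.31 to 6.50 in controls, with 1 higher, and of 4 markers of oligodendrocyte precursors none passed the limma test or had an unadjusted p under 0.05. Of all genes, 15.2% passed. The share was 10% to 16.7% in the interneuron, astrocyte, oligodendrocyte, microglia and endothelial lists. It was 70%, 60% and 40% for mature granule cells, immature granule cells, and pyramidal and mossy cells. The files hold no detection calls, so no marker can be called absent, and the part of cell composition in the results on channel subunits was not tested.

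Of the 42 subunit genes, 7 were higher and 7 were lower in the granule cell layer of mutants, and 28 did not pass the test. This is 33.3% of the members, where 15.2% of all 19938 genes passed (9.23% higher and 5.93% lower). With each array centred on its own median, 44.2% of all changed genes were higher in mutants, against 60.9% without, and the members gave 7 higher and 8 lower. The higher genes were the Kv1 subunits Kcna2, Kcna3 and Kcna6, the Kv2 subunit Kcnb2, the Kv3 subunit Kcnc1, the Kv7 subunit Kcnq5 and the silent modifier Kcng3. The lower genes were the Kv1 subunits Kcna1 and Kcna4, the Kv3 subunit Kcnc4, the silent modifiers Kcng1, Kcns2 and Kcnv1, and the KChIP gene Kcnip1. The median log2 change over the members was 0.0052, against -0.0027 over all genes, and the median size of the change irrespective of direction was 0.18, against 0.082 over all genes. Groups did not overlap for 23 of the 42 members, 14 of them higher and 9 lower, which is 54.8%, where 31.6% of all genes did not overlap (17.0% higher and 14.6% lower). Of the 42 members, 33 lay at or above the median level of all genes, 7.06 on the log2 scale. All 14 changed members were among these 33, which is 42.4%, where 25.0% of all genes at or above that level passed. At or above that level, groups did not overlap for 63.6% of members and 44.7% of all genes. The median size of the change was 0.26 for these members and 0.13 for these genes. None of the 9 members below the median level passed the limma test. An unadjusted p under 0.05 was found for 2 of them, Kcna5 and Kcnd1, where 1207 of all 9969 genes below that level had one. With 3 arrays per group the smallest p an exact permutation test allows is 0.1, so the tests used are those of the model fitted across all genes. With the unpaired test that the methods name, run on the same values, 6 of the 42 members passed after Benjamini-Hochberg adjustment (14.3%), where 5.72% of all genes did.

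**Figure D1:**
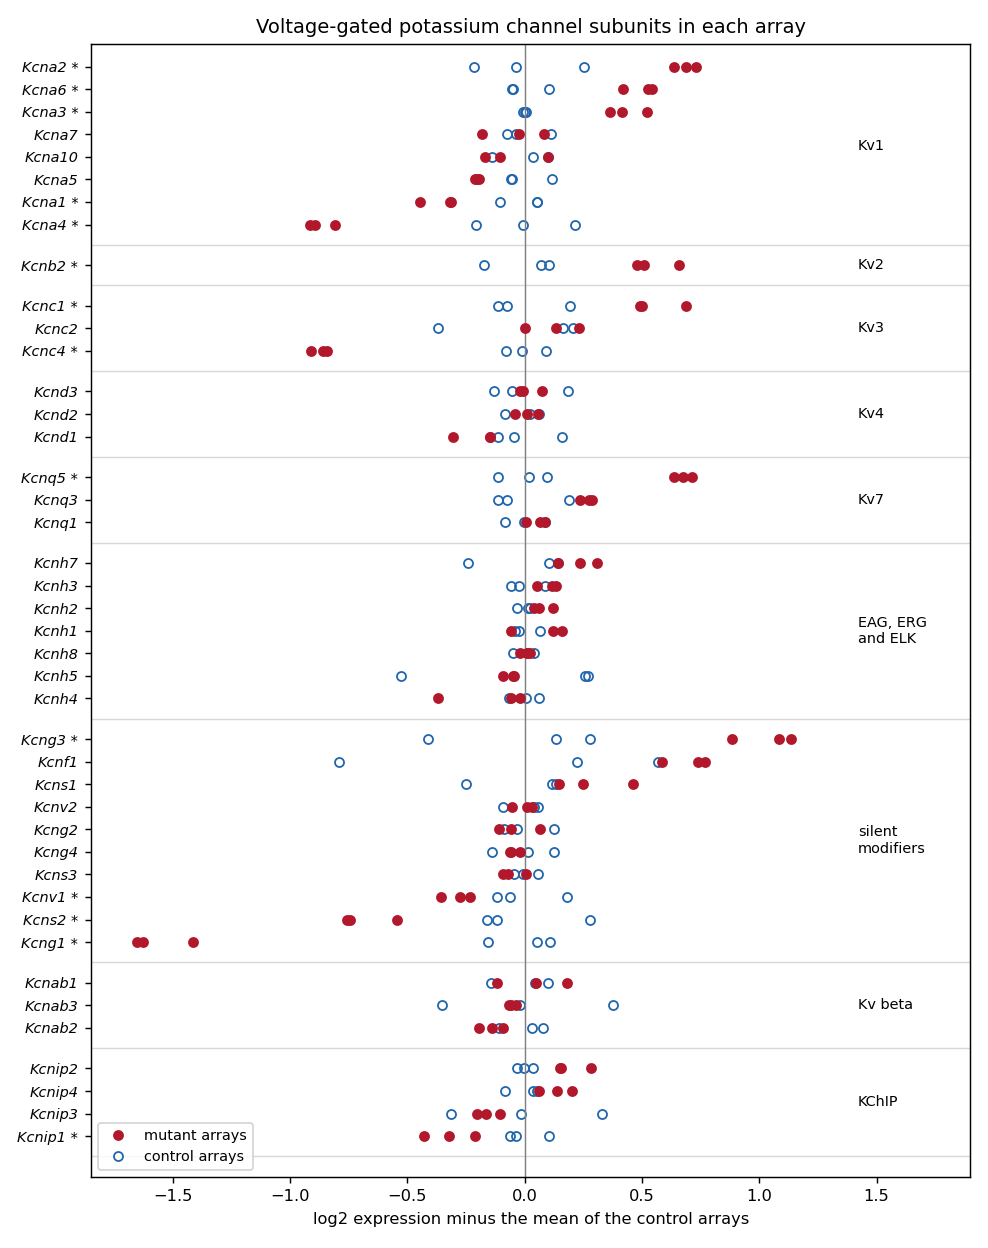
Log2 expression of the 42 channel subunit genes in each array minus the mean of the 3 control arrays (horizontal axis), grouped by family. Filled circles are mutant arrays, open circles control arrays, and an asterisk marks the 14 genes that passed the test. Changed genes of both directions stand in the Kv1, Kv3 and silent modifier groups. Kv4, Kv beta and the EAG, ERG and ELK group hold none among 3, 3 and 7 genes. Of all genes, 15.2% passed.

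In the Kv1 family 3 of 8 genes were higher and 2 lower (62.5%, where 15.2% of all genes passed). Subunits known to share axonal channels thus moved apart. Kcna4 (probe set 10474373), which encodes the rapidly inactivating Kv1 subunit of axons and terminals, had log2 levels of 9.61, 9.53 and 9.50 in mutants, against 10.64, 10.42 and 10.22 in controls. The mutant arrays lay close together and all below the lowest control, with a log2 change of -0.87 (SE 0.098, limma adjusted p = 5.26e-04), which is 0.546 times the control level. Kcna1 (10548047), the low-threshold axonal subunit whose loss causes epilepsy in mice, had levels of 11.35, 11.34 and 11.22 in mutants and 11.72, 11.72 and 11.56 in controls. The decrease was small, 0.779 times the control level, but was outside the spread of the arrays (log2 change -0.36, SE 0.067, limma adjusted p = 0.00723).

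Kcna2 (10495193), a frequent partner of Kcna1 in axonal channels, had levels of 10.52, 10.56 and 10.47 in mutants, against 10.09, 9.80 and 9.61 in controls. It was 1.61 times the control level, with a log2 change of 0.69 (SE 0.11, limma adjusted p = 0.00296), and the spread lay in the controls. A second probe set of Kcna2 (10495197) had 8.71, 8.52 and 8.40 in mutants and 8.18, 7.48 and 7.54 in controls. It moved the same way, with a log2 change of 0.81 (SE 0.17, limma adjusted p = 0.0151 over all probe sets paired with 1 gene). Kcna3 (10495183), which encodes a slowly inactivating subunit better known from lymphocytes, had 9.89, 10.04 and 9.94 in mutants, against 9.52, 9.52 and 9.53 in controls. Its control arrays were nearly identical, and the log2 change was 0.43 (SE 0.058, limma adjusted p = 0.00131). Kcna6 (10548051), a further Kv1 pore-forming subunit of neurons, had 8.60, 8.62 and 8.50 in mutants and 8.18, 8.03 and 8.03 in controls. Its log2 change was 0.50 (SE 0.065, limma adjusted p = 0.00118), and the groups did not overlap.

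Of the remaining Kv1 genes, Kcna5, a subunit best known from heart muscle, stood nearest to the threshold from outside after Kcnip2. It had levels of 4.97, 4.99 and 4.98 in mutants and 5.12, 5.30 and 5.13 in controls, a log2 change of -0.20 (SE 0.062, limma adjusted p = 0.0613). These levels are below the median of all genes and may lie at background, for which the files hold no measure. Kcna5 passed without control 1 (limma adjusted p = 0.0312). It also passed with array weights, with median centring and with the variance trend and robust prior (limma adjusted p = 0.00392, 0.0286 and 0.0416). In the other alternatives that kept the gene it did not pass, with limma adjusted p of 0.0605 to 0.189, and 0.153 with the methods' t-test. Kcna7 and Kcna10 also lay below that median, with log2 changes of -0.041 and -0.058.

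By gene order in the RefSeq annotation of GRCm38.p6, Kcna3, Kcna2 and Kcna10 are successive protein-coding genes on chromosome 3, and Kcna5, Kcna1 and Kcna6 on chromosome 6. In the first group both Kcna3 and Kcna2 were higher in mutants. In the second, Kcna6 was higher and its direct neighbour Kcna1 was lower, by log2 changes of 0.50 and -0.36. The Kv1 subunits therefore did not all change in 1 direction within such a group. Kcna4, with the largest decrease in the family, lies alone on chromosome 2 with regard to Kv1 genes.

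In the Kv2 family Kcnb2 (10344935), which forms slow delayed rectifiers of the soma and dendrites, had levels of 8.85, 8.67 and 8.70 in mutants and 8.26, 8.29 and 8.02 in controls. All mutant arrays lay above all controls, with a log2 change of 0.55 (SE 0.085, limma adjusted p = 0.00287), 1.46 times the control level.

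The Kv3 subunits also diverged. Kcnc4 (10501098), which encodes the fast-inactivating Kv3 subunit present in mossy fiber terminals, had levels of 9.25, 9.23 and 9.18 in mutants, against 10.18, 10.08 and 10.01 in controls. Replicates of each group lay close together, with an SD of 0.035 in mutants and 0.087 in controls (n = 3 each), and the log2 change was -0.87 (SE 0.060, limma adjusted p = 4.36e-05), 0.547 times the control level. Kcnc1 (10553261), the Kv3 subunit known from fast-spiking neurons, had 9.97, 10.15 and 9.96 in mutants and 9.66, 9.39 and 9.35 in controls. Its log2 change was 0.56 (SE 0.092, limma adjusted p = 0.00404), 1.47 times the control level. Kcnc2, a further Kv3 subunit, had a level of 7.27 ± 0.12 in mutants and 7.14 ± 0.32 in controls (SD, n = 3 each), and its log2 change of 0.12 did not pass.

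In the Kv7 family Kcnq5 (10353460), a pore-forming subunit of the M current, had levels of 8.28, 8.20 and 8.24 in mutants, against 7.59, 7.66 and 7.45 in controls. It was 1.59 times the control level, with a log2 change of 0.67 (SE 0.065, limma adjusted p = 2.41e-04). Kcnq3, which joins Kcnq5 subunits in M channels, had 10.78, 10.77 and 10.73 in mutants and 10.68, 10.42 and 10.38 in controls. The groups did not overlap, but control 1 stood close to the mutants, and the log2 change of 0.26 (SE 0.081, limma adjusted p = 0.0617) did not pass the test. Without control 1 it was 0.36 and passed (limma adjusted p = 0.00187). Kcnq3 also passed with array weights and with the variance trend and robust prior (limma adjusted p = 0.00252 and 0.0471). The same held without dim genes and with the replicate number as a block (limma adjusted p = 0.0473 and 0.0415). In the other alternatives Kcnq3 did not pass, with limma adjusted p of 0.0617 to 0.205, and 0.222 with the methods' t-test. Kcnq1, known from heart and epithelia, had a log2 change of 0.052 at a level below the median of all genes.

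**Figure D2:**
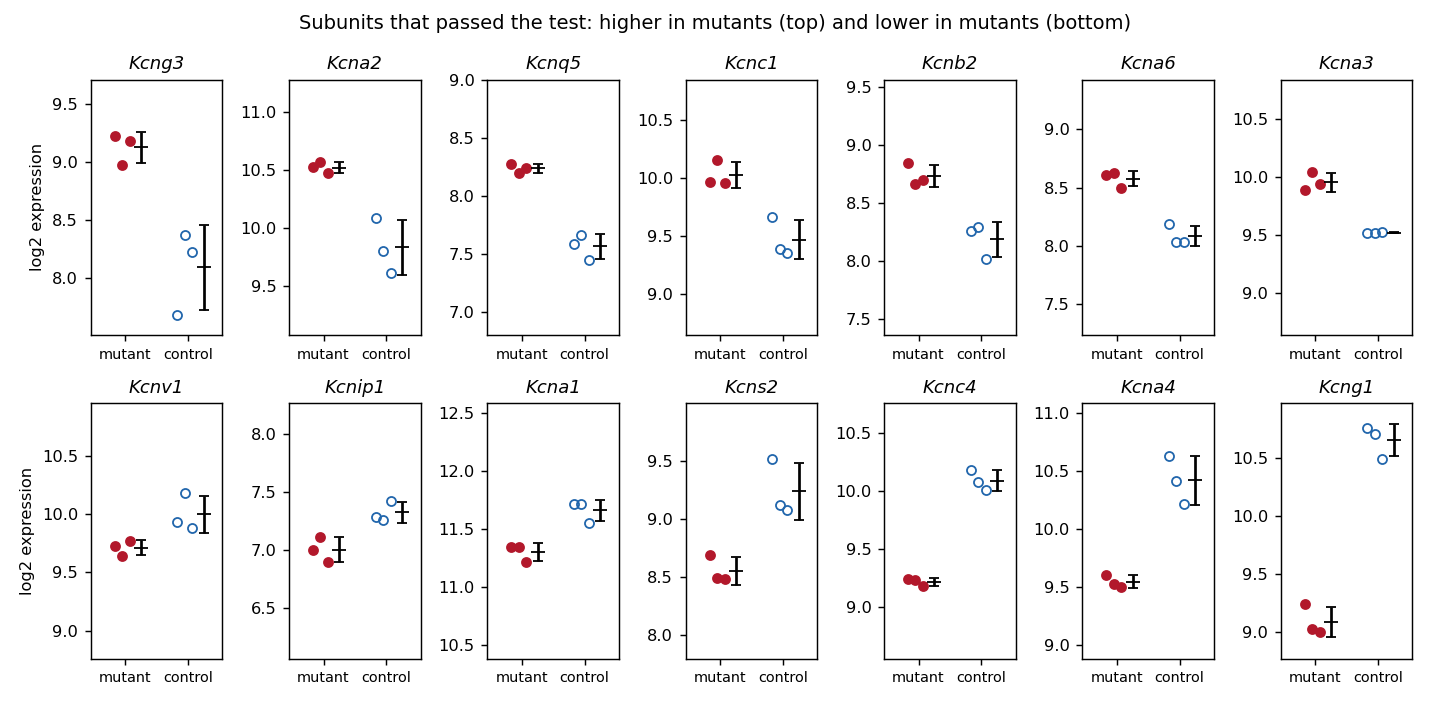
Log2 expression in each array (vertical axis, the same span in every panel) of the 14 subunit genes that passed the test, with the 7 higher in mutants in the upper row and the 7 lower in the lower row. Filled circles are mutant arrays, open circles control arrays, and bars show means with their SD (n = 3 arrays in each group). No gene has overlapping groups, and Kcng1, at 9.09 in mutants and 10.65 in controls, is farthest apart.

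The Kv4 subunits, which carry the dendritic A-type current, gave no change that passed the limma test or the methods' test after adjustment, and 1 of the 3, Kcnd1, had an unadjusted p under 0.05. Kcnd2, the main Kv4 subunit of granule cell dendrites, had a level of 12.03 ± 0.048 in mutants and 12.03 ± 0.074 in controls (SD, n = 3 each), a log2 change of 0.0071 (SE 0.059). For Kcnd3 the levels were 10.28 ± 0.052 in mutants and 10.26 ± 0.16 in controls (SD, n = 3 each), a log2 change of 0.015 (SE 0.083). Kcnd1 had a log2 change of -0.20 at a level below the median of all genes and did not pass the test (limma adjusted p = 0.147). Of the 7 genes of the EAG, ERG and ELK family, Kcnh1 to Kcnh5, Kcnh7 and Kcnh8, none passed the limma test, none had an unadjusted p under 0.05, and none passed with the methods' test after adjustment. Of all 19938 genes, 15.2% passed the limma test, 5419 had an unadjusted p under 0.05 and 5.72% passed the methods' test. Log2 changes of the 7 genes ran between -0.15 and 0.23. Kcnh5 had levels of 8.99, 8.95 and 9.0 in mutants and 8.52, 9.30 and 9.32 in controls. Control 1 lay below the mutants and the other controls above them, and without control 1 the log2 change was -0.33 (limma adjusted p = 0.00283), against -0.064 with all arrays.

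Silent modifiers included the largest change in each direction among the 42 genes. Of 10 modifier genes 3 were lower and 1 was higher, which is 40%, where 15.2% of all genes passed. Kcng1 (10489958) had levels of 9.24, 9.03 and 9.0 in mutants, against 10.76, 10.71 and 10.50 in controls. This was 0.338 times the control level, with a log2 change of -1.57 (SE 0.089, limma adjusted p = 1.64e-05), and the groups were more than 1 log2 unit apart. Kcng3 (10453256), of the same Kv6 group, had 9.23, 8.98 and 9.18 in mutants, against 7.68, 8.37 and 8.23 in controls. It was 2.05 times the control level, with a log2 change of 1.03 (SE 0.16, limma adjusted p = 0.00280). Control 1 was the lowest array, and without it the log2 change was 0.83 (limma adjusted p = 1.81e-04).

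Kcns2 (10423647), a modifier of the Kv9 group, had 8.70, 8.49 and 8.48 in mutants and 9.52, 9.12 and 9.08 in controls. The decrease was to 0.623 times the control level (log2 change -0.68, SE 0.12, limma adjusted p = 0.00474). Kcnv1 (10428443), a modifier of the Kv8 group, had 9.73, 9.64 and 9.77 in mutants and 9.94, 10.18 and 9.88 in controls. Its change was the weakest that passed, with a log2 change of -0.29 (SE 0.083, limma adjusted p = 0.0486). The call was lost without any 1 of the 3 mutant arrays (adjusted p = 0.129, 0.167 and 0.0975 from limma without mutants 1, 2 and 3) and without control 2 (0.123). Kcnf1, a modifier of the Kv5 group, had 8.70, 8.51 and 8.67 in mutants and 7.14, 8.50 and 8.15 in controls. The groups did not overlap, but control 1 lay more than 1 log2 unit below the next control, and the log2 change of 0.70 (SE 0.28) did not pass the test (limma adjusted p = 0.150). Without control 1 it was 0.30 (limma adjusted p = 0.0615). Kcns1 had a log2 change of 0.28 that did not pass. The other 4 modifiers, Kcng2, Kcng4, Kcns3 and Kcnv2, had log2 changes between -0.054 and -0.0048.

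Among auxiliary subunits 1 of 7 genes changed, where 15.2% of all genes passed. All 7 lay at or above the median level, where 25.0% of all genes passed. Kcnip1 (10385096), a KChIP, had levels of 7.0, 7.11 and 6.90 in mutants and 7.29, 7.26 and 7.43 in controls. Its log2 change was -0.32 (SE 0.073, limma adjusted p = 0.0182), at levels close to the median of all genes, and it did not pass without mutant 1 or without mutant 3 (adjusted p = 0.0692 and 0.0770 from limma). Kcnip2 stood nearest to the threshold among the members outside it, with 11.29, 11.42 and 11.30 in mutants and 11.14, 11.18 and 11.11 in controls. The groups did not overlap, and the log2 change was 0.19 (SE 0.058, limma adjusted p = 0.0547). It passed with the variance trend and robust prior, with array weights and without dim genes (limma adjusted p = 0.0382, 0.0350 and 0.0442). In the other alternatives it did not pass, with limma adjusted p of 0.0526 to 0.185, and 0.114 with the methods' t-test. Kcnip4 had a level of 11.57 ± 0.070 in mutants and 11.44 ± 0.075 in controls (SD, n = 3 each), a log2 change of 0.13 that did not pass the test. For Kcnip3, a KChIP that is also known as a calcium-sensitive transcriptional repressor, the levels were 11.99, 11.93 and 11.89 in mutants and 12.43, 12.08 and 11.79 in controls. Its mutant arrays lay within the range of the controls, with a log2 change of -0.16 (SE 0.14, limma adjusted p = 0.531). Kcnab1, a main Kv beta gene of brain, had a level of 11.13 ± 0.15 in mutants and 11.09 ± 0.13 in controls (SD, n = 3 each), a log2 change of 0.037 (SE 0.091). For Kcnab2, which is also prominent in brain, the level was 11.46 ± 0.051 in mutants and 11.61 ± 0.098 in controls (SD, n = 3 each), a log2 change of -0.14 (SE 0.065). Kcnab3 had a log2 change of -0.054 (SE 0.15). None of these 3 Kv beta genes passed the limma test, had an unadjusted p under 0.05 or passed with the methods' test after adjustment, and with array weights Kcnab2 passed (limma adjusted p = 0.0465).

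**Figure D3:**
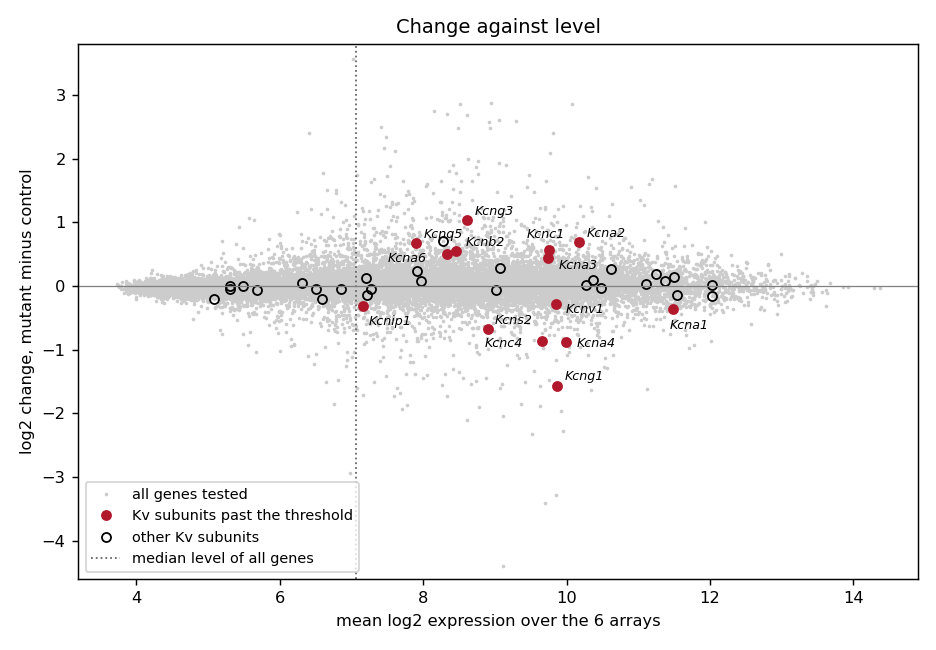
Log2 change, mutant minus control (vertical axis), against mean log2 expression over the 6 arrays (horizontal axis) for all 19938 genes in grey and the 42 channel subunit genes as circles, filled where they passed the test. The dotted line is the median level of all genes, 7.06, and all 14 filled circles lie to the right of it.

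Replicates of the channel subunits were spread more widely in controls than in mutants. The median SD over the 42 genes was 0.069 in mutants and 0.12 in controls, and over all genes it was 0.061 in mutants and 0.081 in controls (n = 3 arrays per group). The SD was larger in controls for 33 of the 42 genes, which is 78.6%, where it was so for 63.2% of all genes. Control 1 was the control array farthest from the control median for 19 of the 42 members and for 43% of all genes. Without it 8 members were higher and 9 lower, where the additional genes were Kcnq3, Kcna5 and Kcnh5, and 22.5% of all genes passed.

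Promoters are shown for 4 of the changed genes of the Kv1 and Kv3 families, which held genes of both directions. Those of the silent modifiers, which also held both directions, are not shown. TGGGC, a putative Bcl11b/Ctip2 binding site named in the study, was searched on both strands in windows from 250 bases before to 50 bases after the annotated start, with sequences from RefSeq (GRCm38.p6). The sequences run 5′ to 3′ on the strand of the gene, and capitals mark TGGGC or its reverse complement GCCCA.
Kcna4, chr2:107290339-107290638, plus strand: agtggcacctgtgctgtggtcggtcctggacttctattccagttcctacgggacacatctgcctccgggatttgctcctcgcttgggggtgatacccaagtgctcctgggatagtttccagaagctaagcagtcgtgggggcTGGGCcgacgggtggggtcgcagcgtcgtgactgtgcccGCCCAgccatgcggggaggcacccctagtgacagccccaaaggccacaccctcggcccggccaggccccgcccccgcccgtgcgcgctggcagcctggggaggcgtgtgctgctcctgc
Kcnc4, chr3:107458849-107459148, minus strand: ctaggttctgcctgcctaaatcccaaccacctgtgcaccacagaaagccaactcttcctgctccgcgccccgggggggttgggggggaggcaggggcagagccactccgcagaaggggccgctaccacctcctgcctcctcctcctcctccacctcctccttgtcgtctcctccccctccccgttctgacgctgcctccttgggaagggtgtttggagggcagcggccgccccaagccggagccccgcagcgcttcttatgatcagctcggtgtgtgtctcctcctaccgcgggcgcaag
Kcna3, chr3:107035912-107036211, plus strand: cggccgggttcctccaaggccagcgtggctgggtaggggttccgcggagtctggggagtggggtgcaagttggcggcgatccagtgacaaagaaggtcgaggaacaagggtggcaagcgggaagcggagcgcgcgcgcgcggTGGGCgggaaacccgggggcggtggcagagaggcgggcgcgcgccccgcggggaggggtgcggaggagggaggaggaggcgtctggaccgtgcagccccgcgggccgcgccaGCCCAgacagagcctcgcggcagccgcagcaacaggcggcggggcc
Kcnc1, chr7:46396218-46396517, plus strand: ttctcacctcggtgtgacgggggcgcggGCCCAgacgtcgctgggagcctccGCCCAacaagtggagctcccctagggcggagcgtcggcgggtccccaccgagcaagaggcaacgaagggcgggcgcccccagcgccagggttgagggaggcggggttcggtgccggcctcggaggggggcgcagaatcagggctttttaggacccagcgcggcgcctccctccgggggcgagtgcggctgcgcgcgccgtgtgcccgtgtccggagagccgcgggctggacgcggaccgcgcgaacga
Of the 2 lower genes, Kcna4 held 2 matches, which begin at positions -108 and -69 from the start, and Kcnc4 held none in this window. Of the 2 higher genes, Kcna3 held 2, which begin at positions -108 and 5, and Kcnc1 held 2, which begin at positions -222 and -198. Among higher members whose windows are not shown, Kcna2 and Kcng3 held no match, while Kcna6 and Kcnq5 held at least 1. The motif was found in 18689 of all 32851 windows (56.9%) and in 25 of 44 windows of member genes (56.8%). Windows were given for 30 of the 42 members. At least 1 match was found for 4 of 6 higher, 2 of 3 lower and 15 of 21 other members with a window, which is 70.0% of the 30 genes, where 59.8% of all genes with a window had one. Counted by window, 5 of 7 windows of higher members (71.4%) and 2 of 5 of lower members (40.0%) held it. A match is a string of letters and not a measured binding site. By chromatin immunoprecipitation the study reported enrichment of a C1ql2 region with this motif and of a Sema5B region without it. Both regions lie farther upstream than the windows used here.

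Among genes of partner proteins of Kv channels, the number that passed depended on the fit. Of 29 such genes measured, which include the single-span Kcne subunits, the Kv4 partners Dpp6 and Dpp10, axonal Kv1 complex proteins and proteins of the axon initial segment, 1 was higher, none was lower and 28 did not pass (3.45%, where 15.2% of all genes passed). With the methods' test after adjustment none was lower either. In either direction, 5 of the 29 had an unadjusted p under 0.05 with limma, where 5419 of all 19938 genes had one. Dpp10 had mean levels of 6.25 in mutants and 6.59 in controls, with groups that did not overlap and a log2 change of -0.34 (SE 0.10, limma adjusted p = 0.0534). It passed as lower in 7 of the 14 alternatives, with limma adjusted p between 0.0166 and 0.0453. The 1 gene was Cntn2, an adhesion molecule that clusters Kv1 channels next to the node of Ranvier, with mean levels of 8.18 in mutants and 7.53 in controls and a log2 change of 0.65 (SE 0.076, limma adjusted p = 6.64e-04). Without control 1, 7 of the 29 partner genes passed, where 22.5% of all genes did, and with array weights 9 passed, where 27.7% of all genes did. In addition, 2 passed without mutant 2 and also without control 3. The median log2 change of this list was 0.062. Of 16 calcium- and sodium-activated potassium channel genes, which serve the repolarization that follows a spike, none passed the limma test or the methods' test after adjustment. The limma share was 15.2% over all genes. Of the 16, 7 lay at or above the median level, where 25.0% of all genes passed, against 5.34% below it. An unadjusted limma p under 0.05 was found for 2 of the 16, where 5419 of all 19938 genes had one. These 2 were Kcnma1, the pore of the large-conductance calcium-activated channel, and Kcnn2, a small-conductance channel, with log2 changes of 0.16 and 0.26 (adjusted p = 0.124 and 0.105 from limma). Without control 1 Kcnma1 passed (limma adjusted p = 0.0243), and without control 3 Kcnn2 did (limma adjusted p = 0.0442). The median log2 change of this list was -0.041.

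**Figure D4:**
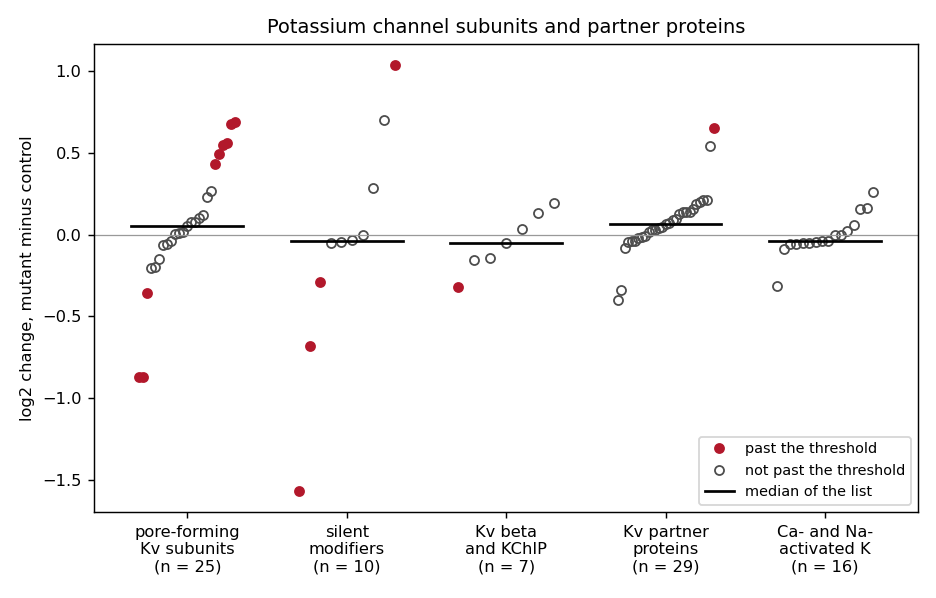
Log2 change, mutant minus control (vertical axis), of each measured gene in 3 groups of Kv subunits and in the lists of Kv partner proteins and of calcium- and sodium-activated potassium channels, with the number of genes below each name. Filled circles passed the test, and black lines are list medians. Changed genes number 9 of 25 pore-forming subunits, 4 of 10 silent modifiers, 1 of 7 auxiliary subunits, 1 of 29 partner genes and 0 of 16 calcium- and sodium-activated channel genes. Of all genes, 15.2% passed, and the lists differ in expression level.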

How the data were processed

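The authors deposited log2 expression values, made with RMA in Affymetrix Expression Console per the labels (versions not given in the sources used here): background correction, quantile normalization and 1 value per probe set. Of 35556 probe sets, the 21789 paired with exactly 1 gene in the platform annotation were kept, and a gene with several was represented by the one of highest average level. No filter on level was applied. A linear model with group as its only term was fitted to the 3 mutant and 3 control arrays (limma 3.58.1, R 4.3.3, moderated by eBayes). P-values of all 19938 genes were adjusted by Benjamini-Hochberg, with 0.05 as threshold. The number of arrays limits the precision. The fit was tested on simulated data.

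Members and lists were chosen with earlier results of these data known. Full values are given for each member past the threshold and the 2 nearest to it outside, and level and change for known hippocampal subunits. Kcnf1, Kcnh5, Kcnma1, Kcnn2 and Dpp10 were named after their values were seen. The alternatives were the methods' unpaired t-test, array weights, a robust prior with a trend in the variance, removal of genes with an average log2 level under 7.06, averaging the probe sets of a gene, median centring, repeated quantile normalization, the replicate number as a block and each array left out in turn. Promoter sequences were read from a RefSeq table. Some subunit genes are not reported here.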

Additional observations from a re-analysis of the deposited data

How the results depend on the processing

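All 14 changed members kept their direction in all 14 alternatives, and Kcng1, Kcnc4, Kcnq5, Kcna4, Kcna6 and Kcna3 passed in each. The methods' t-test with adjustment gave 3 higher and 3 lower members and 1141 changed genes in all, and lost Kcng3, Kcnb2, Kcna2, Kcnc1, Kcns2, Kcna1, Kcnip1 and Kcnv1 (adjusted p of 0.0712 to 0.206). Array weights gave 5527 changed genes, 9 partner genes and 2 calcium- or sodium-activated channel genes. The variance trend with a robust prior, the filter on dim genes, median centring and repeated quantile normalization each gave 2 partner genes. The cause of these differences was not tested.

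With 1 array left out, the number of changed genes ran from 1886 to 4487, of higher members from 7 to 8, of lower members from 5 to 9, of partner genes from 1 to 7 and of calcium- or sodium-activated channel genes from 0 to 1. No source states that arrays of the same number share a litter, batch or day, and the numbers were not taken as pairs. Same-numbered arrays had correlations of their deviations of 0.16, -0.033 and 0.12. Differently numbered arrays were not compared, so these values cannot show whether pairs exist. With the replicate number as a block, 3176 genes, 8 higher and 6 lower members and 3 partner genes passed. Kcnv1 was lost (adjusted p = 0.0612 from limma) and Kcnq3 gained.

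Genes near 0 changed sign without passing the test. Kcnd2 had -0.029 with array weights, -0.041 with median centring and -0.0097 with repeated quantile normalization. Kcnd3 had -0.033 and -0.016 with the last 2, and Kcnab1 -0.012 with median centring. With 1 array left out, the lowest and highest values were -0.034 and 0.037 for Kcnd2, -0.050 and 0.11 for Kcnd3, -0.036 and 0.12 for Kcnab1, and -0.31 and 0.0074 for Kcnip3. Of 349 values of single genes under the alternatives, 307 kept direction and side of the threshold, 15 no longer passed, 13 newly passed and 14 changed sign.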
